A study of Mus musculus with 16 samples.

Results

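Mitochondrial ribosomal proteins were taken as the genes whose symbols begin with Mrpl or Mrps and a number, which gave 77 of the 24411 gene symbols counted in the mouse livers of this study. By symbol, 48 belonged to the large subunit and 29 to the small subunit. All 77 passed the filter on low counts and were tested. Polyadenylated RNA was sequenced from liver in 4 groups of 4 libraries. PF animals were pair-fed and received vehicle. EtOH animals received vehicle and an ethanol diet after the NIAAA protocol, which joins chronic feeding with a binge. The EtOH+MBV group combined the ethanol diet, and the PF+MBV group the pair-fed diet, with matrix-bound nanovesicles, small vesicles recovered from extracellular matrix. The labels give no strain, age, dose or day for these groups, and they do not state that the replicates are separate animals, so the p-values cover the spread among these libraries alone, which may be technical. The questions were how the ethanol diet changed the expression of these genes, and how MBV changed it on each diet.

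Mitochondria make a small set of respiratory chain proteins on ribosomes of their own. The RNA of these ribosomes is read from mitochondrial DNA, whereas every protein subunit is encoded in the nucleus, made in the cytosol and imported. Some subunits descend from bacterial ribosomal proteins and others are found only in mitochondria, and the large subunit holds the catalytic centre while the small subunit holds the messenger RNA. By the lists used here 47 of the members were bacterial homologues and 30 were mitochondria-specific. Liver depends on this machinery because hepatocytes are rich in mitochondria, which also oxidise the acetaldehyde formed from ethanol.

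The libraries held 15.3 M to 20.5 M reads counted in genes, and the lowest count of any member in any library was 44, for Mrps6. Expression is reported as CPM, counts brought to a common library size with TMM factors, and 12901 genes were tested in a single edgeR fit. Summed hepatocyte markers lay between 82860 and 132100 CPM in the libraries of all groups, which fits the liver label. A pair of libraries stood apart. EtOH 1 lay at -74.2 on the second principal component, where the other 15 libraries lay between -17.8 and 24.7, and its summed markers of dividing cells reached 81.9 CPM against at most 7.58 in any other library. EtOH+MBV 1 lay at -0.25 on the first component, between the pair-fed libraries (-48.4 to -32.9) and the other ethanol libraries (38.6 to 54.9). The counts of called members in the diet comparisons, and some single values, are also given without these libraries. Other values, such as the summed levels and those of other gene lists, include them. In bulk liver, fewer cells of a type and less RNA per cell cannot be told apart.

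The members covered a wide range of levels. Mean CPM over the 16 libraries ran from 5.59 for Mrps6 to 83.8 for Mrpl12, with a median of 20.98, and the median of all tested genes was 15.7. Levels of different genes were compared per kilobase of their principal transcript. On that scale Mrpl12, the stalk protein to which translation factors bind, stood highest at 63.7 CPM per kilobase. It was followed by Mrpl52 (51.2), Mrps21 (49.3), Mrpl14 (45.2), Mrpl42 (43.3) and Mrpl33 (37.3). The lowest were Mrpl47 (2.36), Mrpl19 (2.21) and Mrps25 (1.43), whose annotated transcripts are long, at 3364, 5000 and 6073 bases. For Mrps25, 69.8% of the exon bases also lie in Nr2c2 on the opposite strand in GENCODE M21. The annotation behind the deposited counts is not given in the sources used here, so which reads went uncounted is not known. The median per kilobase was 19.0 for the large and 12.5 for the small subunit, and 19.9 for bacterial homologues and 13.0 for mitochondria-specific members.

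**Figure D1:**
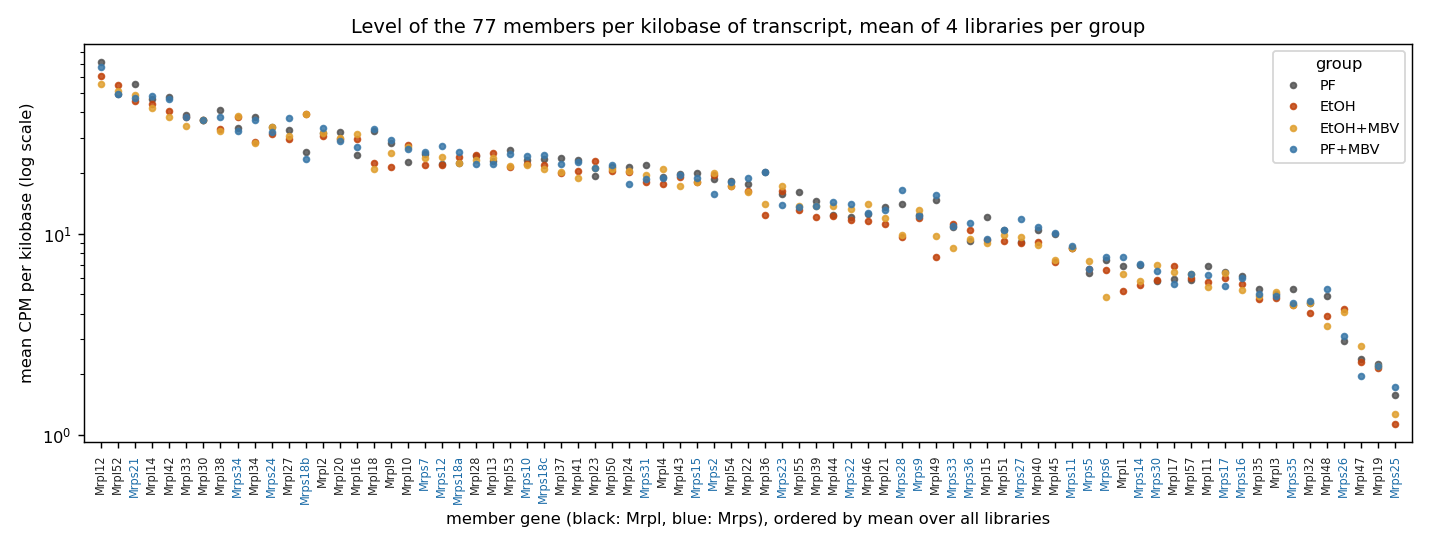
Mean level per kilobase of transcript (log scale) of each of the 77 members, as 1 point per group of 4 libraries; gene names are black for Mrpl and blue for Mrps. Mrpl12 stands highest and Mrps25 lowest, and for most members the 4 group means lie close together compared with the range between members.

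Within a gene, the members varied little between libraries. The highest library exceeded the lowest by a median of 1.56-fold, from 1.23-fold for Mrpl13 to 2.62-fold for Mrpl49, against a median of 2.35-fold over all tested genes. The coefficient of variation between replicates had a median of 9.19% for the members and 14.2% for all tested genes in PF. In EtOH the same medians were 11.1% and 20.3%, in EtOH+MBV 9.36% and 16.6%, and in PF+MBV 6.40% and 9.99%. The tested genes include some at lower levels than any member, and the part of level in these differences was not tested. The members did not vary as a single block. Over the 2926 pairs of members, the Pearson correlation of log2 CPM across the 16 libraries had a median of 0.18, and of 0.20 after the group means were removed. These pairs share libraries and scaling, and the values are a description.

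The summed level of the members was 1912 ± 81.7 CPM in PF (SD, n = 4), 1770 ± 114 in EtOH, 1800 ± 99.9 in EtOH+MBV and 1888 ± 44.7 in PF+MBV. The ranges of PF (1821 to 2020) and EtOH (1652 to 1925) overlapped. The large subunit sums were 1300 ± 53.5 CPM in PF and 1168 ± 70.2 in EtOH, and the small subunit sums were 612 ± 29.2 and 602 ± 45.7. The place of EtOH 1 depended on the scaling. With TMM it was the lowest of all libraries at 1652, and with library totals alone it was the highest at 2094, its TMM factor being 1.27. With library totals the means were 1905, 1806, 1702 and 1968 CPM in PF, EtOH, EtOH+MBV and PF+MBV.

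**Figure D2:**
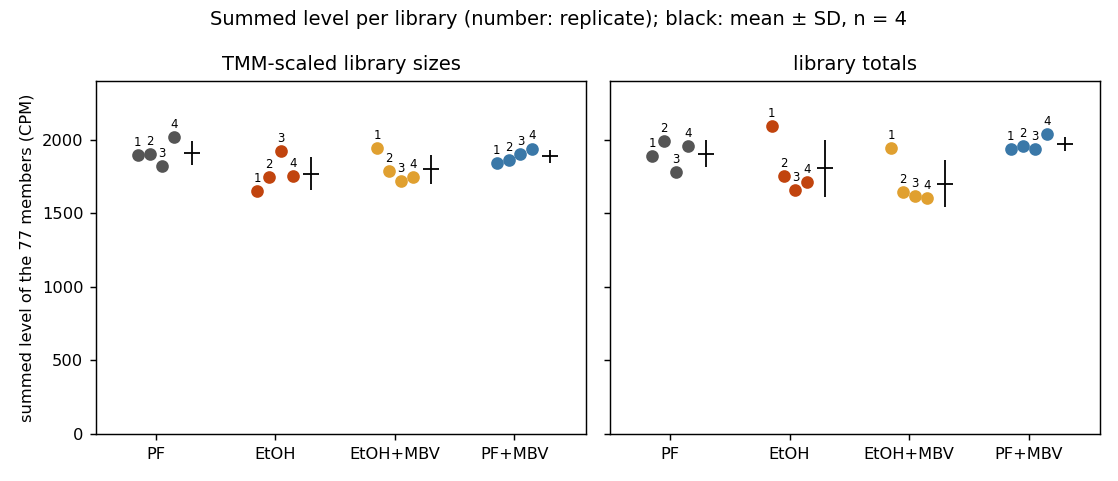
Summed CPM of the 77 members in each library (points, numbered by replicate) with the mean and SD of each group (n = 4), on TMM-scaled library sizes at left and on library totals at right. Library 1 of EtOH is the lowest point at left, at 1652, and the highest at right, at 2094.

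The ethanol diet was associated with lower levels of some members and higher levels of a few, mostly by less than 1.5-fold. In EtOH against PF, 12 of the 77 members fell and 4 rose at an adjusted p under 0.05 (edgeR quasi-likelihood, Benjamini-Hochberg over all genes tested), which is 20.8% of the members. Over all tested genes the share was 39.8% (20.4% higher and 19.5% lower). The median log2 fold change of the members was -0.11, with 58 of 77 negative, and that of all tested genes was 0.01. For 63 members (81.8%) the 95% confidence interval lay within 1.5-fold in either direction, against 33.2% of all tested genes. The share was 86.4% for cytosolic ribosomal proteins and 70.5% for nuclear oxidative phosphorylation subunits, so it was not particular to the members. For 15 members (19.5%) the libraries of the 2 groups did not overlap, against 32.3% of all tested genes. In the large subunit 9 of 48 fell and 2 rose, and in the small subunit 3 of 29 fell and 2 rose. Among bacterial homologues 8 of 47 fell and 3 rose, and among mitochondria-specific members 4 of 30 fell and 1 rose. Without EtOH 1 and EtOH+MBV 1, 11 members fell and 4 rose, beside 41.8% of all tested genes called.

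Mrpl49, a mitochondria-specific protein of the large subunit (chr19:6053622-6057785, minus strand, GRCm38), showed the greatest fall. Its CPM was 26.0, 28.1, 22.7 and 27.3 in the PF libraries 1 to 4 and 10.9, 16.1, 13.0 and 14.0 in the EtOH libraries. All EtOH libraries lay below all PF libraries, and the level was 1.93-fold lower in EtOH (log2 fold change -0.95 ± 0.18 SE, adjusted p = 0.00066, edgeR). Mrpl49 shares 91 exon bases with Syvn1, a ubiquitin ligase of the endoplasmic reticulum on the opposite strand. The log2 fold change of Syvn1 was 0.89 ± 0.40 in EtOH against PF (adjusted p = 0.084, edgeR). In EtOH+MBV against PF+MBV it was 1.48 ± 0.40 (adjusted p = 0.0094, edgeR). The libraries do not keep strand, and reads that fall in more than 1 gene of the counting annotation were left uncounted. Whether the shared bases have a part in the fall of Mrpl49 was not tested.

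Mrpl36, the homologue of a small zinc-binding bacterial protein of the large subunit (chr13:73328513-73332178, plus strand), was at 17.7, 19.9, 17.4 and 19.5 CPM in PF and at 11.0, 10.1, 13.4 and 11.5 in EtOH. The groups did not overlap and the level was 1.62-fold lower (log2 -0.70 ± 0.12, adjusted p = 0.00039, edgeR). Mrpl18, a protein of the central protuberance whose bacterial relative binds the 5S ribosomal RNA (chr17:12911349-12916345, minus strand), was at 36.9, 40.5, 39.5 and 41.3 CPM in PF. In EtOH it was at 23.1, 29.2, 30.2 and 26.7, again with no overlap, and 1.45-fold lower (log2 -0.54 ± 0.12, adjusted p = 0.0022, edgeR). Mrpl45, a mitochondria-specific protein that holds the ribosome at the inner membrane beside the peptide exit (chr11:97315716-97329920, plus strand), was the most even member within PF, with a coefficient of variation of 1.28%. It was at 24.1, 23.7, 24.2 and 24.5 CPM in PF and at 18.9, 17.7, 18.3 and 15.5 in EtOH. Its level was 1.37-fold lower (log2 -0.45 ± 0.09, adjusted p = 0.00097, edgeR), and its exons share no base with another counted gene.

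Of the small subunit, Mrps28 (chr3:8802146-8923918, minus strand) was at 10.9, 11.8, 9.12 and 12.0 CPM in PF and at 8.62, 6.52, 8.06 and 6.97 in EtOH. No EtOH library reached the lowest PF library, and the log2 fold change was -0.54 ± 0.13 (adjusted p = 0.0051, edgeR). Mrps25 changed by -0.47 on the log2 scale and Mrps14 by -0.33. In the large subunit Mrpl1, a protein of the mobile stalk beside the exit site, changed by -0.42, Mrpl34 by -0.41, Mrpl9 by -0.40, Mrpl15 by -0.38 and Mrpl48, another protein of the central protuberance, by -0.34. The Mrpl1, Mrpl15 and Mrps14 libraries overlapped between EtOH and PF. Of the 12 that fell, Mrpl9, Mrpl18, Mrpl36, Mrpl45, Mrpl48, Mrpl49, Mrps25 and Mrps28 passed the test with any single library left out. The calls of Mrpl48 and Mrps25, and that of Mrpl34, were lost with library totals in place of TMM. Mrpl1 did not pass without PF 2. Mrpl15 did not pass without PF 1, PF 4, EtOH 1 or EtOH 2, Mrpl34 without PF 2, PF 4 or EtOH 4, and Mrps14 without PF 3, PF 4 or EtOH 1.

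The members that rose were led by Mrps18b, 1 of 3 mitochondrial relatives of the bacterial S18 protein (chr17:35910379-35916389, minus strand). Its CPM was 27.4, 23.7, 26.0 and 32.5 in PF and 42.5, 35.4, 47.3 and 44.5 in EtOH. Each EtOH library lay above each PF library, and the level was 1.55-fold higher (log2 0.63 ± 0.15, adjusted p = 0.0041, edgeR). The other S18 relatives did not pass the test: Mrps18a had a log2 fold change of 0.09 ± 0.11 and Mrps18c of -0.10 ± 0.10. Mrps26, a mitochondria-specific protein of the small subunit (chr2:130563742-130568695, plus strand), was at 13.6, 13.2, 10.0 and 13.5 CPM in PF and at 19.5, 17.3, 17.9 and 17.4 in EtOH. There too the groups did not overlap, and the level was 1.43-fold higher (log2 0.52 ± 0.13, adjusted p = 0.0040, edgeR). Mrpl10, which anchors the stalk of Mrpl12 copies, rose by 0.29 on the log2 scale, and Mrpl17, which lies near the peptide exit, by 0.22. The call of Mrpl10 was lost without PF 1, PF 2, PF 3 or EtOH 2, and that of Mrpl17 in 6 of the 8 fits that left out a library (without any PF library, EtOH 1 or EtOH 4).

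**Figure D3:**
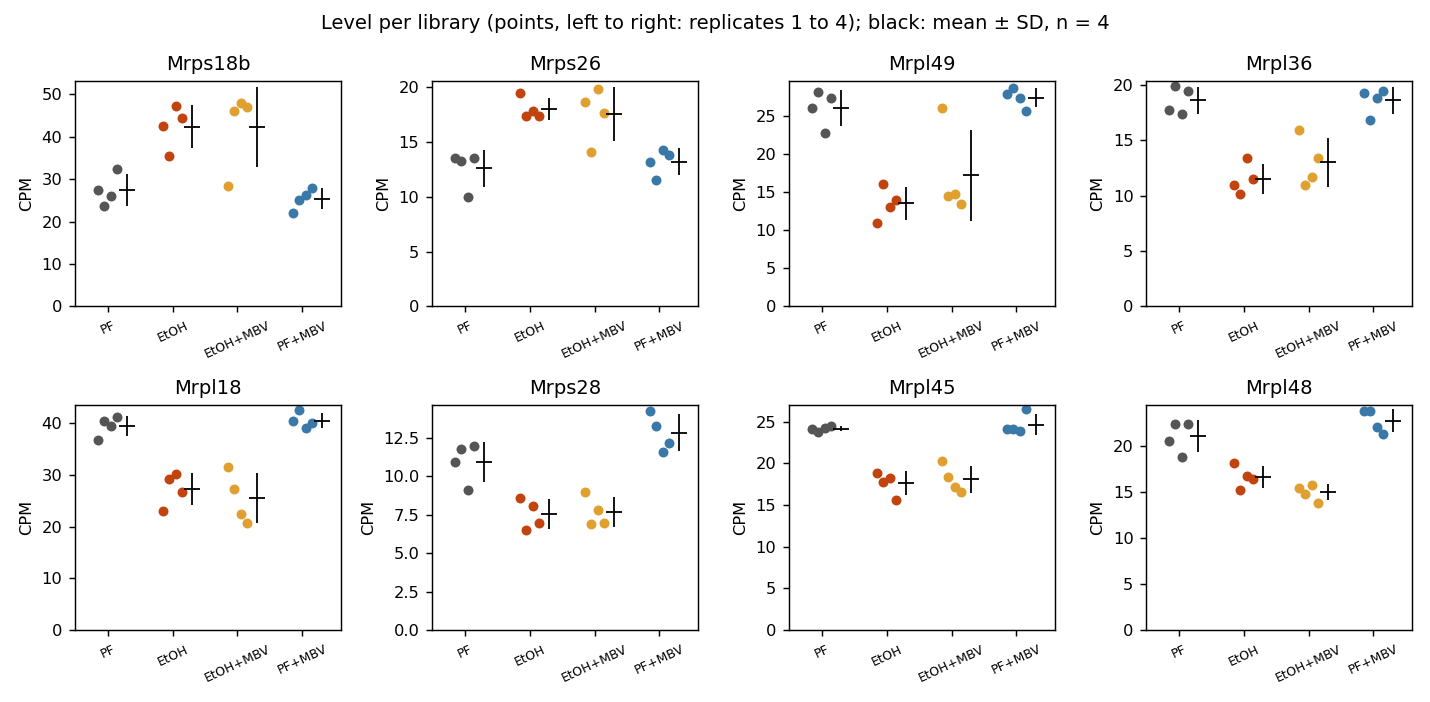
CPM of 8 members in each library (points, left to right replicates 1 to 4) with the mean and SD of each group (n = 4). Mrps18b and Mrps26 are higher and the other 6 lower in the ethanol groups, and library 1 of EtOH+MBV lies among the pair-fed libraries for Mrps18b and Mrpl49.

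Several members with a known role outside the list's name were looked at by name. Mrps30 and Mrps18a, which lie in the large subunit in spite of their symbols, had log2 fold changes of 0.01 ± 0.11 and 0.09 ± 0.11 in EtOH against PF. Mrps36, a part of the 2-oxoglutarate dehydrogenase complex, had one of 0.18 ± 0.15, and Mrps35 one of -0.27 ± 0.12 (adjusted p = 0.083, edgeR). Mrpl12, the most abundant member, was at 84.5, 98.2, 91.7 and 100.4 CPM in PF and at 78.02, 78.94, 84.31 and 78.35 in EtOH, so that EtOH 3 nearly met PF 1. Its log2 fold change of -0.23 ± 0.11 did not pass the test (adjusted p = 0.12, edgeR). Mrps12 and Mrpl41 had log2 fold changes of -0.03 ± 0.11 and -0.19 ± 0.13.

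The same comparison in the animals given MBV, EtOH+MBV against PF+MBV, shares no library with EtOH against PF. In it 12 members fell and 5 rose, 22.1% of the members against 35.9% of all tested genes (19.2% higher and 16.7% lower). The median log2 fold change of the members was -0.07 and that of all tested genes -0.01. Without EtOH+MBV 1 the members' median was -0.15. With library totals in place of TMM the split moved to 19 lower and 1 higher, beside 32.0% of all tested genes called. The median of all tested genes moved to -0.15 and that of the members to -0.21. Without EtOH 1 and EtOH+MBV 1, 16 members fell and 6 rose, while the share called of all tested genes rose from 35.9% to 48.2%. In the large subunit 7 of 48 fell and 1 rose, and in the small subunit 5 of 29 fell and 4 rose. For 62 members (80.5%) the 95% interval lay within 1.5-fold, against 34.2% of all tested genes. The share was 87.7% for cytosolic ribosomal proteins and 87.2% for nuclear oxidative phosphorylation subunits. For 20 members (26.0%) the groups did not overlap, against 39.0% of all tested genes.

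The diet effect was thus measured in separate libraries with and without MBV. The log2 fold changes had a Pearson correlation of 0.71 over the 77 members, and 59 of them (76.6%) had the same sign in both. Over all tested genes these values were 0.65 and 71.9%. The correlation is across genes, which are not independent replicates. Called in both comparisons were 11 of the 77 members, beside 2623 of the 12901 tested genes. The 11 are 68.8% of the member calls in EtOH against PF and 64.7% of those in EtOH+MBV against PF+MBV. For all tested genes the shares were 51.1% and 56.6%. Mrps18b and Mrps26 were higher in both, and Mrpl18, Mrpl34, Mrpl36, Mrpl45, Mrpl48, Mrpl49, Mrps14, Mrps25 and Mrps28 were lower in both. No member was called in opposite directions, beside 55 of the 12901 tested genes. In neither comparison 55 of the 77 members were called, beside 5754 of the 12901 tested genes.

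**Figure D4:**
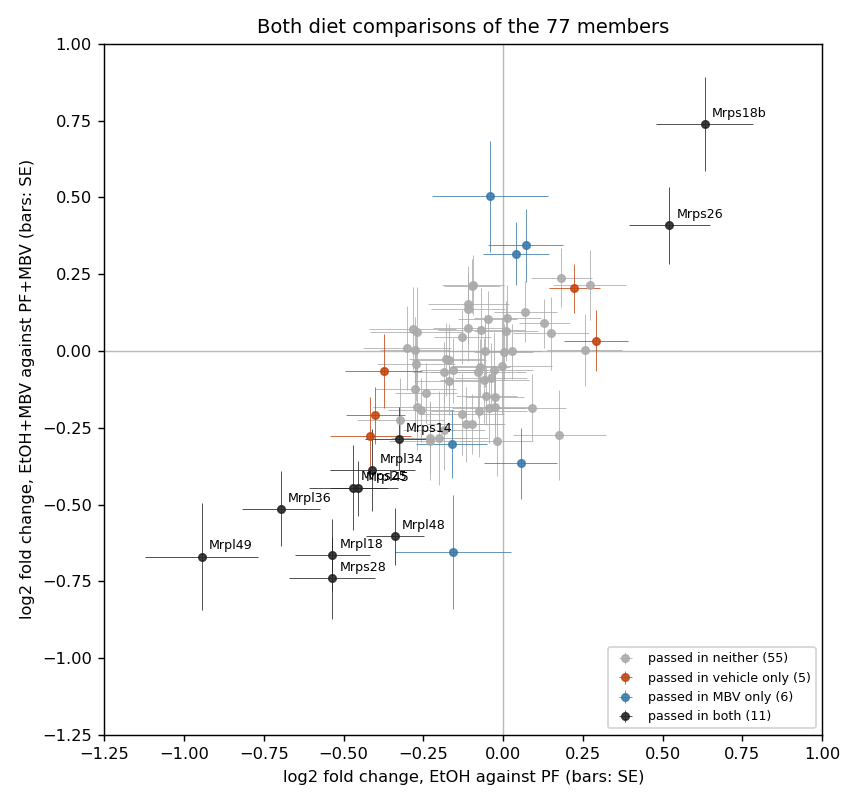
Log2 fold change of each member in EtOH against PF (horizontal) and in EtOH+MBV against PF+MBV (vertical), with standard errors as bars. The 11 members that passed in both comparisons are named, with Mrps18b and Mrps26 at upper right and the other 9 at lower left.

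Values in the MBV-treated animals were close to those above for most of these members. Mrps28 was at 8.99, 6.90, 7.83 and 6.97 CPM in EtOH+MBV and at 14.3, 13.3, 11.6 and 12.2 in PF+MBV, 1.67-fold lower (log2 -0.74 ± 0.13, adjusted p = 0.00066, edgeR). Mrpl18 was at 31.5, 27.3, 22.5 and 20.8 CPM against 40.4, 42.5, 39.0 and 40.1, and 1.58-fold lower (log2 -0.66 ± 0.12, adjusted p = 0.0006, edgeR). Neither gene's groups overlapped. Mrpl48 was at 15.4, 14.8, 15.8 and 13.8 CPM in EtOH+MBV and at 23.8, 23.8, 22.1 and 21.3 in PF+MBV, 1.52-fold lower with the smallest adjusted p of the members here (0.00019, edgeR). Its exons share 708 bases with Rab6a on the opposite strand, a regulator of vesicle traffic whose log2 fold change was 0.61 ± 0.15 in EtOH against PF and 0.37 ± 0.15 here. Mrpl36 changed by -0.51 on the log2 scale, Mrpl45 and Mrps25 by -0.45, Mrpl34 by -0.39 and Mrps14 by -0.29. Of these, Mrpl36 and Mrpl45 passed with any single library left out, whereas the calls of Mrpl34 and Mrps14 were each lost in 7 of 8 such fits and that of Mrps25 in 5 of 8. The call of Mrps14 was also lost with the replicate block.

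EtOH+MBV 1 was unlike the other 3 libraries of its group for some of these members. Mrpl49 was at 26.1 CPM in EtOH+MBV 1 and at 14.5, 14.8 and 13.4 in the others, beside 27.8, 28.7, 27.4 and 25.7 in PF+MBV. Its log2 fold change was -0.67 ± 0.18 with this library and -0.95 without it. Mrps18b was at 28.4 CPM in EtOH+MBV 1 and at 46.01, 47.95 and 46.99 in the others, beside 22.1, 25.09, 26.24 and 28.02 in PF+MBV. Its log2 fold change was 0.74 ± 0.15 with the library and 0.89 without it. For both genes this library lay near the pair-fed range, as it did between the diets on the first principal component, and both calls were kept without it. Mrps26 rose by 0.41, but its groups overlapped and the call was lost without EtOH+MBV 3 or PF+MBV 2.

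Of the members called in EtOH+MBV against PF+MBV and not in EtOH against PF, Mrps6 is a homologue of bacterial S6 (chr16:92058270-92112227, plus strand). It was at 5.37, 5.09, 2.80 and 3.08 CPM in EtOH+MBV and at 6.05, 6.71, 6.77 and 6.25 in PF+MBV, so that the groups did not overlap and the fall came mainly from libraries 3 and 4. The log2 fold change was -0.65 ± 0.19 (adjusted p = 0.012, edgeR), against -0.16 ± 0.18 in EtOH against PF. The test of the difference between the diet effects did not pass for Mrps6 (adjusted p = 0.26, edgeR). Slc5a3, a myo-inositol transporter that shares 159 exon bases with Mrps6 on the same strand, had a log2 fold change of -1.62 ± 0.24 (adjusted p = 0.00013, edgeR). In EtOH against PF, where Mrps6 was not called, that of Slc5a3 was -1.13 ± 0.23 (adjusted p = 0.0012, edgeR). Mrps33 (log2 -0.37) and Mrpl27 (-0.30) also fell, and Mrpl47 (0.50), Mrps2 (0.34) and Mrps23 (0.32) rose. These 5 calls were each lost when at least 3 of the 8 libraries were left out in turn.

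MBV treatment moved no member past the threshold on either diet. In EtOH+MBV against EtOH 0 of 77 members were called at an adjusted p under 0.05 (edgeR), beside 2.69% of all tested genes, and 6 had an unadjusted p under 0.05, as did 21.1% of all tested genes. In PF+MBV against PF 0 were called, beside 1.78% of all tested genes, with 6 at an unadjusted p under 0.05 (16.9% of all tested genes). The interaction, which asks whether MBV changed a gene differently on the 2 diets, called 0 members beside 4.11% of all tested genes, with 5 at an unadjusted p under 0.05 (23.3% of all tested genes). DESeq2 called Mrps33 lower in EtOH+MBV against EtOH and Mrps27 higher in PF+MBV against PF, and limma voom called none in either. The median log2 fold change of the members was 0.02 on the ethanol diet and 0.00 on the pair-fed diet. For 73 members in each comparison the 95% interval lay within 1.5-fold, against 48.1% and 49.7% of all tested genes. In the interaction this held for 58 members (75.3%), against 26.1%. A change above that size was outside the interval for most members.

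The members nearest to the threshold were given by their values. Mrps33 was at 11.3, 12.6, 14.1 and 11.7 CPM in EtOH and at 10.8, 9.84, 7.96 and 9.11 in EtOH+MBV, with no overlap (log2 -0.40 ± 0.12, adjusted p = 0.069, edgeR). Mrps27, an RNA-binding protein of the small subunit chosen after its values were seen, was at 15.4, 18.5, 16.5 and 17.1 CPM in PF and at 21.04, 22.55, 20.93 and 22.46 in PF+MBV. Its groups did not overlap either (log2 0.37 ± 0.11, adjusted p = 0.11, edgeR). Without EtOH 1 and EtOH+MBV 1 the fit called Mrps27 higher and Mrpl15 lower in PF+MBV against PF. Mrpl15 was at 54.3, 42.0, 50.7 and 56.9 CPM in PF and at 35.39, 40.4, 41.02 and 41.94 in PF+MBV (log2 -0.36 ± 0.12, adjusted p = 0.13 with all libraries, edgeR).

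Genes that overlap another gene on the genome made up 23 of the 77 members by GENCODE M21. In EtOH against PF, 7 of these 23 (30.4%) and 9 of the 54 without shared exon bases (16.7%) were called. Over all tested genes the share was 39.8%. In EtOH+MBV against PF+MBV the counts were 9 of 23 (39.1%) and 8 of 54 (14.8%), beside 35.9% of all tested genes. Among members that share no exon base, Mrps18b rose and Mrpl34, Mrpl45, Mrps14 and Mrps28 fell in both comparisons. Mrps18b, Mrpl45 and Mrps28 passed with any single library left out, and Mrpl34 and Mrps14 did not. For the overlapping members a change in a partner's reads was not tested as a part of the result.

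The promoters of the members were searched for the motifs of factors known to act on nuclear genes of mitochondrial proteins. RefSeq windows from 250 bases before to 50 after the start (GRCm38.p6) were at hand for 68 of the 77 members, 9861 of the tested genes and 27025 genes in all. Matches on either strand were counted. The GC-rich motif of NRF1, whose reverse complement is nearly the same so that a site may match on both strands, was held by 13 members (19.1%), 11.2% of tested genes and 5.19% of all genes. The ETS motif CCGGAAG, to which GABPA binds, was held by 25 members (36.8%), 19.2% of tested genes and 9.93% of all. The YY1 motif AANATGGCG was held by 10 members (14.7%), 5.82% of tested genes and 2.76% of all. At least 1 of the 3 was found for 41 members (60.3%), 31.6% of tested genes and 15.9% of all genes. Such matches were not particular to the members. Of 66 nuclear oxidative phosphorylation subunits with a window, 56.1% held at least 1 motif. NRF1 was held by 25.8% of them, ETS by 24.2% and YY1 by 15.2%. Of the 14 members with a window that were called in EtOH against PF, 9 (64.3%) held a motif, and of the 54 not called 32 (59.3%) did. By motif, NRF1 was held by 28.6% of those called and 16.7% of those not called. The shares were 42.9% and 35.2% for ETS, and 7.14% and 16.7% for YY1. A link between motifs and calls was not tested.

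The 150 bases before the start are shown for 4 members, with motif matches in capitals, because they set members that fell, rose or did not pass the test side by side. Mrpl45, which was lower on the ethanol diet with and without MBV, is read from chr11:97315566-97315715 on the plus strand and holds NRF1 matches. Mrpl34, which was also lower in both, is from chr8:71464776-71464925 on the plus strand and holds an ETS match. Mrps18b, which was higher in both, is from chr17:35916441-35916590 on the minus strand. Its only match, an ETS motif, lies after the start and so outside the bases shown. Mrpl44, chosen after its values were seen, is from chr1:79775868-79776017 on the plus strand and holds an NRF1 match.
Mrpl45: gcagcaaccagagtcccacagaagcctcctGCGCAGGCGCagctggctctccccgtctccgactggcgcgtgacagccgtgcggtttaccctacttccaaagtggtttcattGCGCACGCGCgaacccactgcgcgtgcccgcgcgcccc
Mrpl34: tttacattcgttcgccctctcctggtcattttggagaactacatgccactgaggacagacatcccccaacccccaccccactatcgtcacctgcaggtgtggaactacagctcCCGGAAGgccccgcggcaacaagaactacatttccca
Mrps18b: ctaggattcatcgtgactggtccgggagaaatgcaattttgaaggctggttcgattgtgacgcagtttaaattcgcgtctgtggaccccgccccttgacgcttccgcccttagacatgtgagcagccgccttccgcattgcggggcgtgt
Mrpl44: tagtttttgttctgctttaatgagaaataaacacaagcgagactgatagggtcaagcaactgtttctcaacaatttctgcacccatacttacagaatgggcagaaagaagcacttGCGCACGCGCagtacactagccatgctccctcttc
The log2 fold change of Mrpl44 in EtOH against PF was -0.03 ± 0.12, so an NRF1 match stood before a member that fell and before a member with an estimate near 0. A match is a description of letters and not of a bound site.

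Other genes of mitochondrial translation were counted from fixed lists in EtOH against PF, where 39.8% of all tested genes were called (20.4% higher and 19.5% lower). Of 6 tested ribosome subunits with other symbols, 1 fell (16.7%): Ptcd3, a protein of the small subunit, by 0.33 on the log2 scale. Of 23 tested assembly factors, 9 fell and 2 rose (47.8%), with a median log2 fold change of -0.32. Noa1, a GTPase needed for the small subunit, was at 14.2, 11.5, 12.7 and 13.8 CPM in PF and at 5.23, 3.96, 5.30 and 4.77 in EtOH (log2 -1.44 ± 0.16, adjusted p = 8.51e-06, edgeR). Mettl17, another assembly factor of the small subunit, was at 17.6, 14.6, 13.6 and 14.7 CPM in PF and at 6.49, 6.22, 7.05 and 7.48 in EtOH (log2 -1.15 ± 0.12, adjusted p = 4.06e-06, edgeR). In both genes the groups lay far apart. Ngrn, which is needed for the large ribosomal RNA, changed by -1.08 on the log2 scale.

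Of 22 translation factors and related enzymes, 9 fell and 0 rose (40.9%, near the 39.8% of all tested genes), with a median of -0.23. Mrrf, which recycles the ribosome after termination, changed by -0.45 and Mtif3, an initiation factor, by -0.56. Of 17 tested genes that copy, transcribe or process the mitochondrial genome, 8 fell and 0 rose (47.1%), with a median of -0.49. Hsd17b10, a subunit of the mitochondrial RNase P, changed by -0.99, Polg2, a subunit of the DNA polymerase, by -1.12, and Peo1, the helicase Twinkle, by -0.62. Of 19 regulators and stress genes, 7 rose and 1 fell (42.1%). The shares called of these 3 lists are close to that of all tested genes and are not a result about them. Atf4, a transcription factor of the integrated stress response, was at 62.1, 67.3, 64.3 and 73.1 CPM in PF and at 177, 127, 184 and 196 in EtOH (log2 1.36 ± 0.16, adjusted p = 1.47e-05, edgeR). Esrra, a nuclear receptor that drives mitochondrial genes, fell by 0.70.

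In EtOH+MBV against EtOH, 2 of 23 tested assembly factors rose and 1 fell in the fit of all 16 libraries (13.0%, beside 2.69% of all tested genes). The fit of only the groups compared called 0 of all genes, so that none of these calls, nor those of Mrrf and Gtpbp3, is kept there. Mettl17 was at 10.6, 10.6, 10.3 and 9.17 CPM in EtOH+MBV, above every EtOH and below every PF library (log2 0.58 ± 0.12 against EtOH, adjusted p = 0.024, edgeR). Noa1 was at 9.21, 5.83, 9.30 and 6.79 CPM in EtOH+MBV, also above the EtOH libraries (log2 0.69 ± 0.16, adjusted p = 0.035, edgeR). Mpv17l2, an inner membrane protein of ribosome assembly, changed by -0.55 on the log2 scale. The interaction was 0.73 ± 0.17 for Mettl17 (adjusted p = 0.025, edgeR) and 0.88 ± 0.22 for Noa1 (adjusted p = 0.038, edgeR). It called 3 of the 23 assembly factors (13.0%), beside 4.11% of all tested genes. Mrrf rose by 0.37 and Gtpbp3, a tRNA-modifying enzyme, by 0.70 in EtOH+MBV against EtOH. In PF+MBV against PF, Esrra changed by -0.71 and Tfb1m, a methyltransferase of the small ribosomal RNA, by -0.64. The EtOH+MBV against EtOH comparison shares its EtOH libraries with EtOH against PF, so these values are given side by side only. With a library left out in turn, that comparison called 8 to 1169 of all genes, and these genes were not followed through those fits.

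Nuclear oxidative phosphorylation subunits and cytosolic ribosomal proteins had medians of opposite sign in EtOH against PF, with that of the members between them. In EtOH against PF 51 of 81 tested cytosolic ribosomal proteins rose and 0 fell (63.0%), with a median log2 fold change of 0.27 and a quartile range of 0.19 to 0.35. Of 78 tested oxidative phosphorylation subunits 32 fell and 0 rose, a called share near the 39.8% of all tested genes, with a median of -0.28 and quartiles of -0.34 and -0.17. The quartiles of the members were -0.27 and 0.00. In EtOH+MBV against PF+MBV 39 cytosolic ribosomal proteins rose (48.1%) and 11 oxidative phosphorylation subunits fell (14.1%), beside 35.9% of all tested genes called. These medians describe the lists, and the differences between them were not tested. The groups also differed in cell type markers, whose part in these values was not tested: summed erythroid markers, which rest on Alas2 since Hbb-bs and Hba-a1 were at 0 in all libraries, were 87.5 to 158 CPM in PF, 3.58 to 31.3 in EtOH, 26.0 to 96.3 in EtOH+MBV and 80.8 to 109 in PF+MBV. In EtOH against PF all 6 stellate cell markers were called (4 higher and 2 lower), as were 4 of 5 sinusoidal endothelial markers (1 higher and 3 lower), 3 of 6 tested monocyte and recruited macrophage markers (2 higher and 1 lower), 1 of 6 Kupffer cell, 1 of 4 cholangiocyte, 1 of 4 dividing cell and 1 of 7 hepatocyte markers, the single tested erythroid marker, and 0 of 2 neutrophil and 0 of 1 lymphocyte markers, beside 39.8% of all tested genes.

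**Figure D5:**
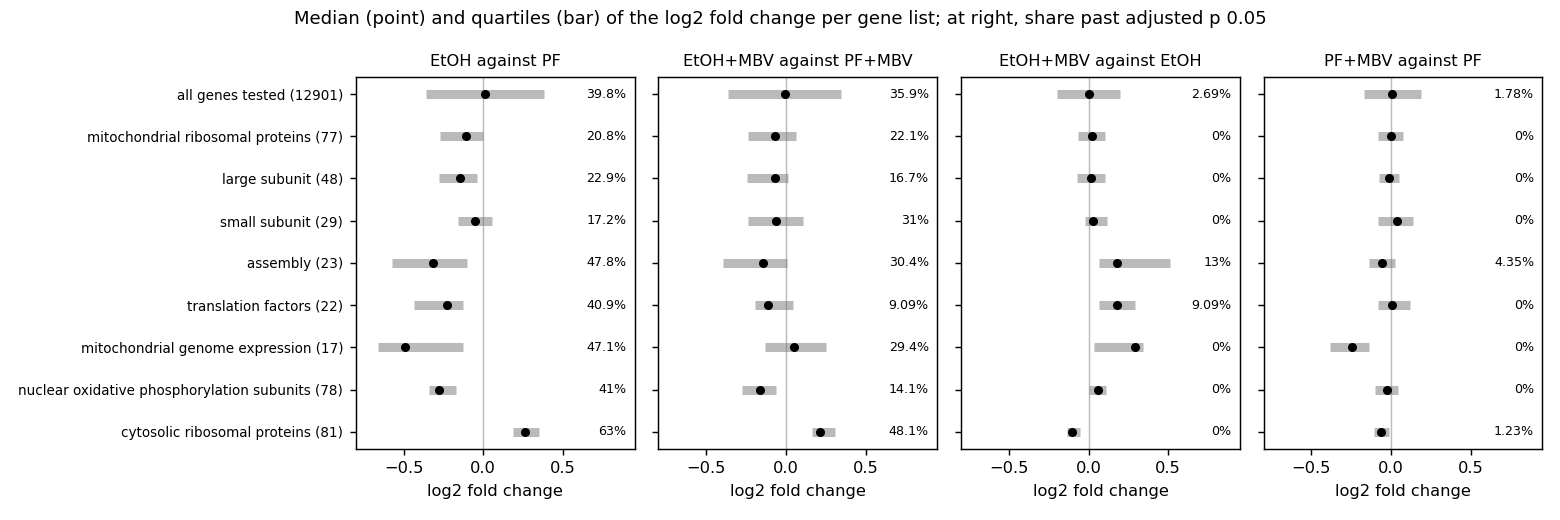
Median (point) and quartiles (bar) of the log2 fold change in each gene list for 4 comparisons, with the number of tested genes beside each name and the share past an adjusted p of 0.05 at right. In EtOH against PF the members have a median of -0.11, between the oxidative phosphorylation subunits at -0.28 and the cytosolic ribosomal proteins at 0.27.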

How the data were processed

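The deposited tables hold counts of reads per gene symbol, as the authors' aligner wrote them, with no normalization. Trimmomatic, STAR and the build mm10 are named per the submitters' processing notes, with versions and settings not given in the sources used here. Unstranded counts were used, since the stranded columns split reads nearly evenly (50.6% to 51.8%). Reads without a gene made up 9.40% to 10.9% and ambiguous reads 1.35% to 1.69% of a library, and these were left out. Ambiguous reads were 1.35% to 1.38% in PF, 1.46% to 1.69% in EtOH, 1.40% to 1.48% in EtOH+MBV and 1.35% to 1.39% in PF+MBV. In the same order, unmapped reads were 15.9% to 19.9%, 11.9% to 13.8%, 11.6% to 13.7% and 14.5% to 16.0%. Multimapping reads were 4.57% to 5.31%, 5.43% to 7.56%, 6.60% to 7.58% and 4.99% to 5.35%. Whether these differences have a part in the results was not tested.

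Genes were kept by filterByExpr (minimum count 10), leaving 12901. Libraries were scaled by TMM (factors 0.863 to 1.27), and all 16 entered a single edgeR 4.0.16 quasi-likelihood fit in R 4.3.3 with a mean per group. The Benjamini-Hochberg adjustment ran over all genes tested in a comparison, with 0.05 as the threshold. CPM was computed from the deposited counts with TMM-scaled library sizes. Errors of fold changes are standard errors of that fit (n = 4 per group, 12 residual degrees of freedom before moderation). The spread differed between groups: chi-square divided by its degrees of freedom, between replicate libraries, was 8.29 to 15.4 in PF+MBV and 25.6 to 157 in EtOH. DESeq2 1.42.0, limma 3.58.1 (voom), other scalings, no filter, only the compared groups, a replicate block and each library left out were alternatives. Positions, transcript lengths and overlaps come from GENCODE M21 (GRCm38), which matched all 77 members. Cytosolic ribosomal proteins were taken by symbol without S6 kinases and Rps19bp1. Genes encoded in mitochondrial DNA were not analysed here.

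The members and lists were chosen with earlier results of these data known. Named members are those called in a comparison, up to 10 in each direction by fold change and with at least 1 CPM in the higher group, the 6 highest and 3 lowest per kilobase, and 9 fixed members. From each other list, up to 4 genes by p in EtOH against PF and up to 2 in each other comparison were named from those that passed, and some of these are only counted. Mrps14 and Mrpl27 were left out by this limit and were named after their values were seen, as were the genes that overlap a member.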

Additional observations from a re-analysis of the deposited data

Results flagged for a closer look

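Within groups of 4 libraries, a library was singled out where its gap to the nearest other library relative to the group's range exceeded Dixon's critical value at the 95% level. Of the 308 groups of members 15 (4.87%) met this, and chance gives about 1 in 20. EtOH+MBV 1 was the library in 5 of the 15. Among the named members it was high for Mrpl49 (26.1 CPM, others 13.4 to 14.8) and Mrps35 (19.9 CPM, others 17.6 to 17.9), and low for Mrps18b (28.4 CPM, others 46.0 to 48.0). EtOH 3 was high for Mrpl12 (84.3 CPM, others 78.02 to 78.94), and EtOH 1 was high for Mrpl19 (13.0 CPM, others 9.66 to 10.2). PF+MBV 4 was high for Mrpl45 (26.5 CPM, others 23.8 to 24.1), and PF 3 was low for Mrps26 (10.0 CPM, others 13.2 to 13.6).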

How the results depend on the processing

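Of the 16 members called in EtOH against PF, DESeq2, limma voom, median-of-ratios scaling and the replicate block called all 16. Library totals called 12 of them, without Mrpl17, Mrpl34, Mrpl48 and Mrps25. No filter on low counts kept 15, and the fit of only the compared groups kept 12, with 2 higher rather than 4. With a library left out in turn, 2 to 4 members were higher and 9 to 18 lower, and 10 of the 16 calls passed every time. Those fits called 32.7% to 38.8% of all tested genes. In EtOH+MBV against PF+MBV, library totals gave 1 higher and 19 lower member, beside 32.0% of all tested genes called. Leaving out libraries gave 1 to 5 higher (1 without PF+MBV 2) and 7 to 15 lower (7 without EtOH+MBV 3, EtOH+MBV 4 or PF+MBV 4). Of the 17 calls, 8 passed every time. Those fits called 26.1% to 40.8% of all tested genes.

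In EtOH+MBV against EtOH, DESeq2 gave 1 lower member, and leaving out libraries gave 0 to 1 higher and 0 to 1 lower. The 347 genes called over all tested became 905 with DESeq2, 196 with library totals, 0 with only the compared groups, 205 with the replicate block, 180 without EtOH 1 and EtOH+MBV 1, and 8 (without EtOH+MBV 3) to 1169 (without EtOH 4) with a library left out. In PF+MBV against PF, DESeq2 gave 1 higher member, the compared groups alone gave 1 higher and 1 lower, as did leaving out EtOH 1 and EtOH+MBV 1, and leaving out libraries gave 0 to 1 lower. The 230 genes called became 665 with DESeq2, 1119 with only the compared groups, 1022 without both libraries and 45 (without PF 1) to 689 (without PF 2) with a library left out. The interaction's 530 genes became 1113 with DESeq2, 349 with library totals, 887 without both libraries, and 168 (without PF 1) to 1088 (without EtOH 4). The causes were not tested. No direction of a called member reversed. Library totals moved the median log2 fold change of all tested genes to -0.11 in EtOH+MBV against EtOH and -0.18 in the interaction, and that of the members to -0.10 and -0.15. The fit without EtOH 1 and EtOH+MBV 1 was added after the data were seen.

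Same-numbered libraries did not deviate together (24 pairs, correlation -0.12 to 0.17, 3 over 0.1). This cannot decide whether the numbers pair the samples, since pairing need not leave a strong shared deviation. The replicate block called 16 members in each diet comparison. With 4 libraries a group, low members such as Mrps6 carry the widest intervals. By GENCODE M21, 23 members share exon bases with another gene, and the annotation used for counting may differ.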
